A study of Mus musculus with 32 samples.

Results

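RADICL-seq joins RNA to the DNA beside it through a bridge adapter inside fixed nuclei, so that each read pair reports where an RNA came from and which DNA it lay beside (the RNA tag and the DNA tag), and here it was used to compare chromatin with its proteins in place against chromatin from which they had been removed. All libraries came from R08 mouse embryonic stem cells, grown without feeder cells in medium with LIF and serum, and no library used here received actinomycin D. The 1FA libraries (3 replicates, n1 to n3), called total in the study, were fixed with 1% formaldehyde and ligated with crosslinks intact. In the NPM libraries (2 replicates, n1 and n2), named for interactions not mediated by proteins, chromatin proteins were stripped with proteinase K and detergent, and the crosslinks undone, ahead of the ligation of bridge adapter to RNA. The labels give no formaldehyde dose for them, and the study's text gives 1% for them too. Per the study's methods the NPM protocol also differed in its concentration and clean-up steps and in both ligations, which were done on the purified nucleic acids, so protein removal and these changes cannot be told apart. Every interaction of these 5 libraries was a member, which gave 8985911 interactions of 25231081 in the whole series, from 12 of 32 samples (each library has an RNA and a DNA sample, and NPM n1 has a resequenced pair as well). An interaction is a distinct combination of the position of the RNA tag, its gene and the position of the DNA tag.

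The deposited lists hold only pairs of a transcript and a 25000-base DNA bin that passed the study's binomial test on pooled replicates, so a value of 0 means that no listed pair remained and not that no RNA was present, and a share describes listed contacts. The 1FA libraries held 2667971, 2441619 and 2832717 interactions, and the NPM libraries 434610 and 608994. NPM n1 and n2 listed 11667 and 11657 transcripts against 14064 to 14205 in 1FA, and 25138 and 25103 DNA bins against 65274 to 65885. Transcript profiles correlated at Pearson r of 0.974 to 0.982 among the 1FA libraries, 0.945 between the NPM libraries and 0.781 to 0.821 across conditions (over 10096 transcripts, which are not independent replicates). Every one of the 10 stem cell markers was listed, among them Esrrb, Sall4 and Sox2, while none of 3 mesoderm markers was. Of markers of other cell types, 2 of 5 for fibroblasts, 3 of 5 for oligodendrocyte progenitors, 2 of 3 for neural cells and 2 of 4 for endoderm were listed; the fibroblast genes were Thy1, which the study counts among stem cell markers, and Col1a1, listed at 0 in 1FA with 5 and 3 interactions in NPM. The endoderm markers Gata4 and Gata6, whose products drive primitive endoderm, were lower in 1FA n1 than in the other libraries: Gata4 had 40.5, 136 and 150 CPM (interactions scaled to a common library total) in 1FA and 173 and 156 in NPM. The listed oligodendrocyte progenitor markers (Pdgfra, Cspg4 and Sox10) were also low in 1FA n1, with a summed level of 6.37 CPM against 31.5 and 31.1 in n2 and n3 and 82.8 and 70.6 in NPM, mostly from Pdgfra, a receptor gene that is also expressed in primitive endoderm. The part of these differences in the results that follow was not tested. The NPM libraries shared 6740 identical interactions, 1.55% of n1 and 1.11% of n2, while no other pair of libraries shared more than 0.123% of either.

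As background, nascent RNA lies close to the gene it is copied from and contacts made in cis thin out with distance, whereas some nuclear noncoding RNAs, such as Malat1 of nuclear speckles and the small RNAs of splicing and ribosome assembly, act at many loci away from their gene. Proteins hold many of these RNAs on chromatin, and an RNA can also pair with DNA directly, most often with the template strand at its own gene. The protocol includes an RNase H step, which degrades RNA in such hybrids.

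The DNA tag lay upstream of the RNA tag, that is, on its 5′ side along the RNA's strand, in nearly all NPM contacts within 100 kb and in a minority of 1FA contacts beyond 1 kb. Within 1 kb, 67.3%, 69.2% and 63.5% of 1FA contacts were upstream, against 96.8% and 98.5% in NPM, leaving out contacts with both tags on the same base. From 1 to 10 kb the shares were 34.3%, 35.6% and 34.4% in 1FA and 96.8% and 98.1% in NPM. From 10 to 100 kb they were 38.3%, 38.3% and 38.6% in 1FA, and 96.7% in both NPM libraries. The groups stood apart in each class, with the NPM mean of the 1 to 10 kb class at 97.4% ± 0.879 (SD, n = 2) and the 1FA mean at 34.8% ± 0.734 (SD, n = 3). From 100 kb to 1 Mb the upstream share was 47.9% to 48.0% in 1FA and 79.6% and 78.2% in NPM, the latter from only 406 and 547 contacts. From 1 to 10 Mb, where NPM held 159 and 391 contacts, 1FA lay at 49.8% to 50.1% and NPM at 44.7% and 46.5%, and this difference turned when the ribosomal RNA bin described below was left out.

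Shares such as these were compared between groups with an exact permutation test over the 10 ways of splitting 5 libraries, two-sided, whose smallest possible p is 0.2; with 70 shares in the family the smallest Benjamini-Hochberg value was 0.230, so no share could pass a threshold of 0.05. The groups did not overlap in 61 of the 70 shares. In what follows, a share is said to stand apart when the ranges of both groups do not overlap.

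**Figure D1:**
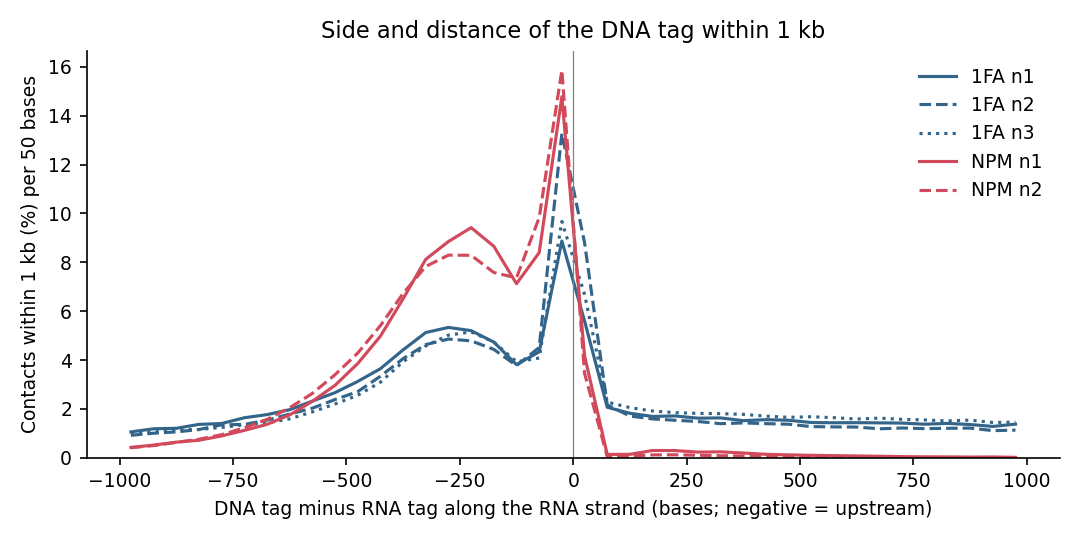
Share of contacts within 1 kb (vertical axis, percent per 50 bases) against the position of the DNA tag relative to the RNA tag along the RNA strand (horizontal axis, bases, negative is upstream), with a line for each library of 1FA (blue) and NPM (red). Downstream of the RNA tag the NPM lines lie near 0 beyond the peak at the origin while the 1FA lines level off near 1 to 2%, and NPM has a broad rise 200 to 400 bases upstream that holds 33.0% and 31.2% of its contacts within 1 kb.

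The upstream position held transcript by transcript. Of 873 transcripts with at least 20 contacts within 1 kb in every library, the median upstream share was 66.7%, 69.5% and 63.6% in 1FA and 97.7% and 98.9% in NPM. More than 90% of these contacts were upstream for 22, 15 and 4 transcripts in 1FA and for 858 and 872 transcripts in NPM. Upstream DNA tags within 1 kb lay at a median of 303, 268 and 278 bases from the RNA tag in 1FA and of 242 and 244 bases in NPM. The stretch from 200 to 400 bases upstream held 20.1%, 18.4% and 18.7% of 1FA contacts within 1 kb, against 33.0% and 31.2% in NPM.

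Distance itself separated the conditions. Over all cis contacts the median distance was 136251, 114381 and 126812 bases in 1FA and 270 and 265 bases in NPM. Contacts from 10 to 100 kb made up 28.3%, 28.3% and 28.5% of 1FA interactions and 2.02% and 1.497% in NPM. Contacts from 100 kb to 1 Mb, the largest class in 1FA at 41.1%, 38.3% and 40.1%, made up 0.0934% and 0.0898% in NPM. In the class from 1 to 10 kb the libraries lay close together, at 9.74%, 10.6% and 10.5% in 1FA and 9.73% and 7.17% in NPM. Among 4914 transcripts with enough interactions, limma on the log odds of a contact lying within 1 kb called 4913 higher in NPM (100% of those tested) and none lower.

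**Figure D2:**
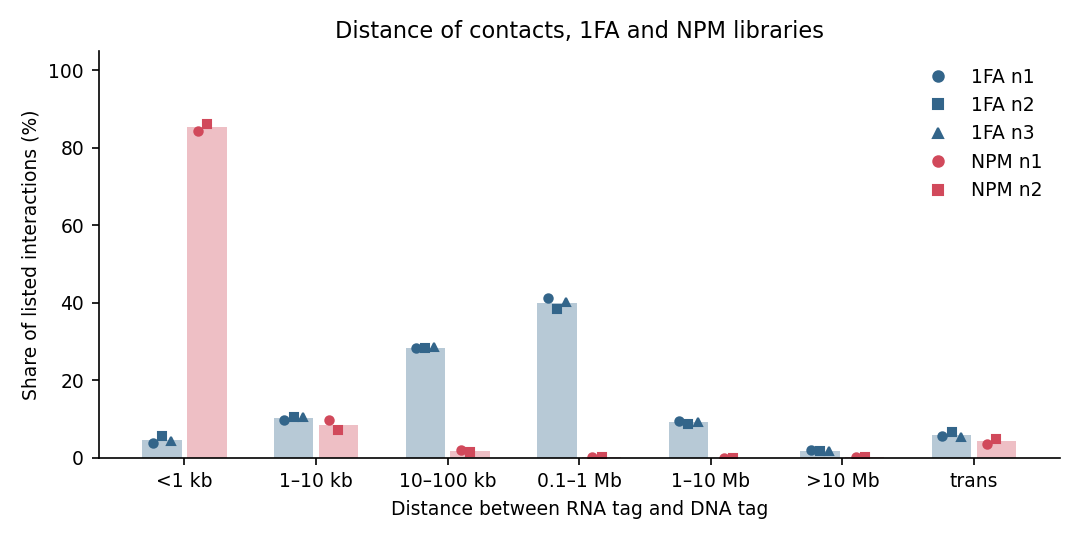
Share of listed interactions (vertical axis, percent) by distance between RNA tag and DNA tag (horizontal axis), with bars at the mean of the 3 1FA (blue) and 2 NPM (red) libraries and a point for each library. NPM contacts sit almost wholly under 10 kb, whereas 1FA contacts are most frequent from 10 kb to 1 Mb.

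The NPM contacts that spanned 1 to 100 kb within their own gene mostly joined exon to exon. In the class from 1 to 10 kb, both tags were exonic in 6.11%, 5.67% and 5.63% of own-gene contacts in 1FA and in 77.9% and 74.7% in NPM. From 10 to 100 kb the shares were 1.77%, 1.44% and 1.46% in 1FA and 88.9% and 83.9% in NPM. Where the RNA tag was exonic, the DNA tag at 10 to 100 kb was exonic too in 14.4%, 14.5% and 13.8% of 1FA contacts and in 97.2% and 95.5% of NPM contacts. Within 1 kb the difference was much smaller, with both tags exonic in 16.04% to 17.7% in 1FA and 26.7% and 22.8% in NPM.

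Once introns were removed, these distant exon pairs were close. The spliced distance, counted along the exons of an annotated transcript that holds both tags, was under 1 kb in 1.39%, 1.16% and 1.09% of 1FA own-gene contacts from 1 to 10 kb and in 74.7% and 70.4% of NPM contacts. From 10 to 100 kb it was under 1 kb in 0.184%, 0.129% and 0.131% in 1FA and in 82.2% and 76.6% in NPM. Over exon pairs 1 to 100 kb apart on the genome the median spliced distance was 331 and 346 bases in NPM and 1621, 1587 and 1627 bases in 1FA. These medians cover only pairs on a shared annotated transcript, which were 14163 of 20005, 12106 of 17322 and 14020 of 20290 in 1FA. In NPM they were 39888 of 40241 and 39164 of 39846. The smallest distance over shared transcripts was taken, and pairs within a single exon were included. The DNA tag was upstream in 99.7% of NPM exon pairs from 1 to 10 kb in both libraries, against 39.0%, 39.6% and 38.0% in 1FA. Intronic RNA tags kept a weaker form of the same order, since 86.3% and 92.5% of NPM own-gene contacts from 1 to 10 kb with an intronic RNA tag were upstream, against 34.1% to 35.8% in 1FA. The files give no strand for the DNA tag, and whether its molecule was genomic DNA or a copy of spliced RNA was not tested.

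**Figure D3:**
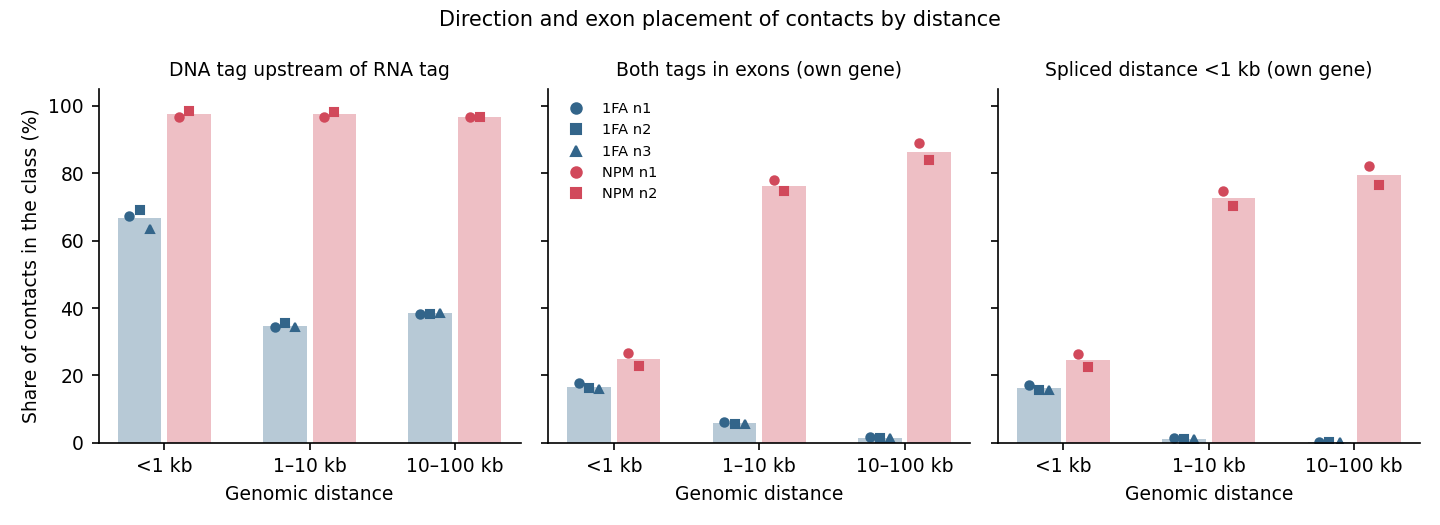
Share of contacts in each distance class (vertical axes, percent) with the DNA tag upstream (left), with both tags exonic in their own gene (middle) and with a spliced distance under 1 kb (right), by genomic distance (horizontal axes); bars are group means and points are libraries of 1FA (blue, n = 3) and NPM (red, n = 2). The groups are close for the exon measures within 1 kb and far apart from 1 to 100 kb.

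The genes with most such contacts in NPM were Hsp90b1, Eif3a, Tpr, Macf1, Serbp1 and Fn1. Hsp90b1 encodes the chaperone GRP94 of the endoplasmic reticulum, Eif3a a subunit of a translation initiation factor, and Tpr a protein of the nuclear pore basket. For Hsp90b1, 223 of 237 and 183 of 194 own-gene contacts from 1 to 100 kb had a spliced distance under 1 kb in NPM, against 1 of 19, 5 of 45 and 4 of 33 in 1FA. For Eif3a the NPM counts were 229 of 236 and 112 of 116, and those of 1FA 2 of 70, 3 of 58 and 3 of 92. For Tpr they were 182 of 193 and 138 of 143 in NPM and 2 of 101, 2 of 60 and 6 of 111 in 1FA. Macf1, a long gene for a cytoskeletal linker with 1178 to 1591 such contacts in each 1FA library, had 6 to 14 of them within 1 kb after splicing, against 138 of 162 and 171 of 212 in NPM.

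For Hsp90b1, Eif3a and Tpr the pair of neighbouring exons with most NPM contacts in this order is given here, because the order of its parts is the order of the tags: the last 60 bases of the exon that held the DNA tag are in lower case and the first 60 bases of the next exon, which held the RNA tag, are in capitals, both read 5′ to 3′ along the RNA from GRCm38.p6 (mm10) with exons numbered along the annotated transcript.
Hsp90b1 exons 7 and 8: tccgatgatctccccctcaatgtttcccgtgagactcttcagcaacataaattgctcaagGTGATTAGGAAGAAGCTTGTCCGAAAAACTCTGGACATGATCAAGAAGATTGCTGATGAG
Eif3a exons 16 and 17: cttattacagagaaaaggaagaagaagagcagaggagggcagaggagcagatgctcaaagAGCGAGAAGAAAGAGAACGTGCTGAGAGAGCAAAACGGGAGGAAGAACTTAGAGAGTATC
Tpr exons 18 and 19: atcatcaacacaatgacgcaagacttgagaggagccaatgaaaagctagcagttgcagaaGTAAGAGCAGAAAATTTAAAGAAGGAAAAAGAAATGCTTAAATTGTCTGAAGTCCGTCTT
Only contacts from 1 to 100 kb were counted for these pairs, so any within 1 kb are left out. The Hsp90b1 exons lie on the minus strand at chr10:86695477-86695542 and chr10:86694350-86694619, with an intron of 857 bases between them, and the pair held 18 contacts in each NPM library and 0, 1 and 0 in 1FA. The Eif3a exons lie on the minus strand at chr19:60769866-60770019 and chr19:60768708-60768892, 973 bases apart, and held 25 and 20 contacts in NPM and none in any 1FA library. The Tpr exons lie on the plus strand at chr1:150416069-150416231 and chr1:150417382-150417516, 1150 bases apart, with 8 and 10 contacts in NPM and none in 1FA. None of the contacts counted for these pairs was in the opposite order, with the RNA tag in the earlier exon. Since the pairs were chosen by their NPM contacts in this order, these counts are a description.

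The RNA regions differed too. Intronic RNA tags, which come from unspliced RNA or excised introns, made up 80.3%, 81.1% and 82.2% of interactions in 1FA and 63.6% and 69.2% in NPM. Coding exons made up 6.48%, 4.78% and 4.98% in 1FA and 20.7% and 16.8% in NPM, and 3′ untranslated regions 2.99% to 3.20% in 1FA and 7.10% and 6.68% in NPM, whereas 5′ untranslated regions lay at 0.984% to 1.34% in 1FA and 0.749% and 0.677% in NPM. In NPM the coding share was larger at a distance: from 10 to 100 kb it was 7.69%, 5.56% and 5.86% in 1FA and 82.5% and 78.0% in NPM, while within 1 kb it was 7.47% to 9.35% and 13.7% and 11.6%. The groups stood apart in each of these shares. The base composition of the RNA tag's surroundings differed little, with 46.6% to 47.6% G+C in 1FA and 46.4% and 46.2% in NPM.

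By biotype, protein-coding RNAs gave 92.0%, 90.8% and 92.1% of interactions in 1FA and 93.1% and 95.0% in NPM. Small nuclear RNAs gave 2.77%, 4.64% and 3.92% in 1FA and 0.108% and 0.0197% in NPM, and all of the 1FA share was the gene Gm22973, so that without it small nuclear RNAs are listed at 0 in 1FA. Without Gm22973 the differences of the protein-coding and small nuclear shares both changed sign. Mitochondrial ribosomal RNAs made up 0.0656%, 0.0104% and 0.0169% in 1FA and 1.095% and 0.334% in NPM. Small nucleolar RNAs overlapped between the groups, at 0.247% to 0.456% in 1FA and 0.930% and 0.288% in NPM. Long intergenic RNAs overlapped as well, at 2.53% to 3.65% in 1FA and 2.89% and 2.63% in NPM.

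Gm22973 lies at chr12:59040335-59040525 on the plus strand and is annotated as a small nuclear RNA. It is shown because it is the transcript with most interactions in 1FA and because its sequence is that of a U2 small nuclear RNA, a spliceosome component encoded by many near-identical copies, so its position on the genome is uncertain (GRCm38.p6, all in lower case).
Gm22973: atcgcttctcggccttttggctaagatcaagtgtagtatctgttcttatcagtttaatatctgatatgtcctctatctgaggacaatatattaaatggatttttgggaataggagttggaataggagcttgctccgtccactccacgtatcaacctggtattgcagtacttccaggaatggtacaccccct
It had 73919, 113253 and 111028 interactions in 1FA, of which 97.7% to 97.8% were in trans, and 221 and 65 in NPM. Capture is the number of interactions of a transcript relative to its library; CPM values are printed scaled by the library total, and log2 changes (NPM over 1FA) and tests use TMM scaling. Capture of Gm22973 fell by 7.81 on the log2 scale (SE 0.52, limma adjusted p = 4.8e-06), with every NPM library below every 1FA library. Malat1, the speckle lncRNA, behaved differently: its interactions were 67441, 39879 and 38130 in 1FA and 7010 and 8163 in NPM, its capture did not pass the limma test (log2 change -0.78, SE 0.45, adjusted p = 0.172), but its share in trans was 92.6%, 92.5% and 92.0% in 1FA and 12.4% and 15.97% in NPM. The bin from chr19:5800001-5825000, which holds part of the Malat1 gene, had 616, 462 and 439 contacts in 1FA and 4173 and 3937 in NPM; Malat1 RNA itself gave 62.2% of these contacts in 1FA and 98.7% in NPM, libraries pooled.

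In NPM, DNA tags outside the RNA's own gene fell mostly on ribosomal sequence. The bin at chr17:39825001-39850000, where the assembly carries Gm26917, CT010467.1, Gm42418 and AY036118 with ribosomal RNA sequence, held 10549, 13167 and 8040 interactions in 1FA (0.395%, 0.539% and 0.284%) and 11380 and 27939 in NPM (2.62% and 4.59%). Together with annotated ribosomal RNA genes it took 70.98% and 85.5% of the DNA tags outside the RNA's own gene in NPM, against 0.558%, 0.774% and 0.408% in 1FA. The contacts came from 2092 and 2162 different RNAs in NPM and from 1039 to 1085 in 1FA. Intronic RNA made up 53.6% and 68.7% of them in NPM and 22.6%, 28.7% and 26.4% in 1FA. Because many ribosomal repeats are collapsed onto this bin, its counts cannot be assigned to a single locus. The study's methods remove ribosomal RNA from the RNA tags and describe no removal of ribosomal sequence from the DNA tags. They also describe a later filter that took contacts in blacklisted genome regions out of the significant sets. This bin is nevertheless present in the deposited lists, and whether it lies in such a region was not checked. Whether these DNA tags were genomic DNA or came from RNA or its copies was not tested. Leaving it out, the trans share was 5.16%, 6.26% and 5.19% in 1FA and 1.12% and 0.530% in NPM, instead of 5.51%, 6.73% and 5.44% and 3.61% and 4.87%. Leaving out Gm22973 with the bin kept reversed the difference of the trans share, with an NPM minus 1FA difference of 1.93 percentage points against -1.65 with it.

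**Figure D4:**
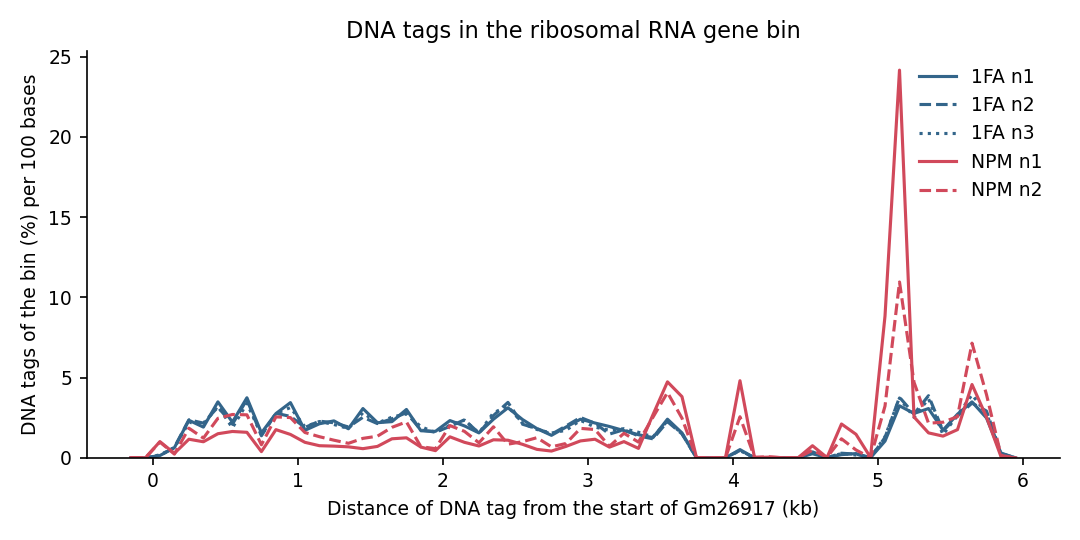
Share of the bin's DNA tags (vertical axis, percent per 100 bases) against distance from the start of Gm26917 (horizontal axis, kb), with a line for each library of 1FA (blue) and NPM (red). The 1FA lines are spread along the sequence with no step of 100 bases above 3.93%, and the NPM lines peak just beyond 5 kb, at 24.2% in n1 and 10.96% in n2.

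Within the bin the conditions used different stretches. Gm26917 took 72.1%, 70.5% and 70.6% of the bin's DNA tags in 1FA and 31.8% and 48.6% in NPM. CT010467.1, annotated as ribosomal RNA, took 27.6%, 29.1% and 28.9% in 1FA and 67.9% and 51.1% in NPM. The groups did not overlap for either gene, although the NPM libraries differed from each other more than the 1FA libraries did. The stretch of 200 bases with most NPM contacts from other RNAs, chr17:39848051-39848250, chosen by that count, held 3900 of 11313 and 4737 of 27685 of the bin's contacts from other RNAs in NPM n1 and n2, against 589 of 10404, 834 of 12793 and 505 of 7848 in 1FA. It is printed with the busiest window of this kind that has no annotated gene, both from the plus strand of GRCm38.p6 in lower case to show which DNA letters these contacts fell on.
chr17:39848051-39848250: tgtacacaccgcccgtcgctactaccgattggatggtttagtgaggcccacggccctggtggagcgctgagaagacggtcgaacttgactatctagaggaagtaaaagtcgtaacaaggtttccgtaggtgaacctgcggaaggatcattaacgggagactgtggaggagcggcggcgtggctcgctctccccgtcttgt
chr11:109011822-109012021: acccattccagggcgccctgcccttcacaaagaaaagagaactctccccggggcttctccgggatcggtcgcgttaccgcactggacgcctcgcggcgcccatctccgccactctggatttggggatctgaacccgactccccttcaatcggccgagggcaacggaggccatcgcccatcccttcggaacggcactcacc
The first window lies in CT010467.1 and Gm42418 and contains the 3′ end of the 18S ribosomal RNA followed by spacer. The window on chromosome 11 had 510 and 676 contacts of other RNAs in NPM and 188, 261 and 165 in 1FA, which was 73.9% of its bin's contacts from other RNAs in NPM and 77.4% in 1FA, and it shares no run of 30 bases with the bin on chromosome 17 on either strand. The gene n-R5-8s1, a copy of 5.8S ribosomal RNA, had 1592 and 402 contacts from other RNAs in NPM and 12, 15 and 15 in 1FA. The busiest window at this gene shares no such run with the chromosome 17 bin either. The check therefore cannot tell whether the window on chromosome 11 is ribosomal, and its contacts are not in the ribosomal share above. Rmrp, the RNA of RNase MRP, as a DNA target had 119 and 40 contacts of other RNAs in NPM against 1, 4 and 1 in 1FA. Snord13, a small nucleolar RNA used in ribosomal RNA maturation, had 67 and 21 against 0 in all 1FA libraries.

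The small RNAs of ribosome assembly showed the ribosomal bin from the RNA side. Rnu3a encodes the U3 RNA, which pairs with the ribosomal precursor, and 74.7%, 77.3% and 72.7% of its interactions in 1FA lay on the bin, against 32.8% and 39.1% in NPM. Snord13 had 73.8%, 72.7% and 68.6% of its interactions there in 1FA and 29.4% and 35.4% in NPM. Snord118, the U8 RNA of large subunit maturation, did not follow them, with 44.0%, 30.01% and 33.3% in 1FA and 38.9% and 65.2% in NPM, the last from 46 interactions. Malat1 lay at the other end, at 0.412%, 0.574% and 0.331% in 1FA and 3.45% and 7.45% in NPM.

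Per transcript, limma was run on log2 CPM with TMM scaling over 10096 transcripts with enough interactions, and 5020 were called at adjusted p under 0.05 (49.7%), 2280 higher and 2740 lower in NPM. The median log2 change was 0.01 with TMM scaling and 0.51 when libraries were scaled by their totals, which gave 4203 higher and 1326 lower calls, so directions near 0 depend on the scaling. Of the 5020 called transcripts, 411 were listed at 0 in both NPM libraries. Transcripts from long protein-coding genes tended to be lower: under 10 kb of gene length 462 of 1064 rose and 123 fell (median log2 change 0.76), from 30 to 100 kb 574 of 3472 rose and 1079 fell (-0.14), and above 300 kb 13 of 372 rose and 210 fell (-0.75). The study's methods describe replicates as batches of cells at different passages, and p-values measure the spread between these libraries. Listed interactions also cannot separate fewer RNA molecules on chromatin from fewer contacts per molecule.

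Among transcripts with at least 100 interactions on average, capture rose most for Hspa5, mt-Rnr1, Hsp90b1, mt-Rnr2 and Calr. Hspa5, which encodes the endoplasmic reticulum chaperone BiP, had 6.37, 33.2 and 30.01 CPM in 1FA and 1420 and 833 in NPM, a log2 change of 5.34 (SE 0.56, limma adjusted p = 3.8e-05). Hsp90b1 had 24.4, 57.3 and 42.7 CPM in 1FA and 1445 and 946 in NPM, a log2 change of 4.39 (SE 0.30, limma adjusted p = 4.8e-06). Calr, the calcium-binding chaperone calreticulin, rose by 3.31 on the log2 scale (SE 0.27). The groups did not overlap for any of them. In all 3, RNA tags were more often exonic in NPM, for Hsp90b1 27.3% to 43.1% in 1FA and 92.2% and 88.5% in NPM.

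The mitochondrial ribosomal RNAs mt-Rnr1 and mt-Rnr2 are made in the mitochondria, outside the nucleus. mt-Rnr1 had 311, 50.0 and 79.1 CPM in 1FA and 6178 and 1875 in NPM, a log2 change of 4.48 (SE 0.66, limma adjusted p = 0.00037), and mt-Rnr2 rose by 3.96 (SE 0.66). Both had their lowest NPM value above their highest in 1FA, although libraries within a group differed several-fold. Of 15 mitochondrial transcripts 9 were listed and only these 2 passed the filter; mt-Nd5 and mt-Cytb were listed at 0 in all 1FA libraries and had 60 and 6, and 43 and 2, interactions in NPM. Eif3a (2.71), Trim28 (2.56), Bms1 (2.43), Tpr (2.33), Nasp (2.30), Snord14e (2.23) and Bod1l (2.18) completed the rises on the log2 scale; Snord14e lies within the gene Hspa8 on the same strand. Trim28 encodes the corepressor KAP1, Bms1 a ribosome assembly factor and Nasp a histone chaperone. The rise of Nasp turned into a fall when every transcript-bin pair counted a single time.

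Among the falls, Gm22973 was followed by Snord118, whose interactions were 2626, 5738 and 3191 in 1FA and 296 and 46 in NPM (log2 change -3.10, SE 0.69, limma adjusted p = 0.0039). Unkl (-2.24), Rpl12 (-1.99), Fgfr2 (-1.94), Adap1 (-1.88), Vav2 (-1.86), Mrps18a (-1.84), Ube2v1 (-1.83), Map2k2 (-1.83), Prr5 (-1.82) and Sumo2 (-1.82) followed. Rpl12 encodes a protein of the large ribosomal subunit and Map2k2 a kinase of the ERK cascade. Rpl12 had 100, 152 and 127 CPM in 1FA and 46.0 and 42.7 in NPM. Of the tags assigned to Fgfr2, 95.1% lay within another gene of the same strand, so its value cannot be read as that of the receptor gene.

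Gene groups were described by counts, beside 22.6% higher and 27.1% lower over all tested transcripts. With scaling by totals, 4203 of all 10096 tested transcripts were higher and 1326 lower, and group counts by totals are to be read beside these. With every transcript-bin pair counted a single time, a setting named for several groups, 2560 of all 5672 tested transcripts were higher and 2718 lower (median -0.02), so most members tested there are called in one direction or the other. Of 70 histone genes, 31 were listed and 21 tested, of which 16 rose and 1 fell (median log2 change 3.17, or 2.71 over the 17 listed in both groups). Hist1h4d, a replication-dependent H4 gene, had 3, 4 and 3 interactions in 1FA and 145 and 64 in NPM, and Hist1h1c, a linker histone gene, had 58, 32 and 44 in 1FA and 175 and 69 in NPM, with no overlap for either. Hist1h4d passed the filter only through the NPM libraries, where it is high, so the group's counts and median depend in part on the filter. The member that fell was H2afy, the polyadenylated macroH2A gene, at 326 to 336 CPM in 1FA and 166 and 230 in NPM. Histone genes have near-identical copies, so single members are uncertain, and when every transcript-bin pair counted a single time only 2 passed the filter, both lower. Without NPM n1, 9 rose and 2 fell of 15 tested (median 1.80).

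Of small structured noncoding RNAs, 9 of 15 tested were higher and 2 lower (median 2.09, or 1.96 over the 14 listed in both groups). Rn7sk, the RNA that holds back the elongation factor P-TEFb, had 9.75, 26.2 and 13.8 CPM in 1FA and 251 and 184 in NPM (log2 change 3.29, SE 0.34). Rmrp had 290, 433 and 259 CPM in 1FA and 2582 and 1455 in NPM (log2 change 2.09, SE 0.25, limma adjusted p = 0.000102). Scarna2, which guides modification of spliceosomal RNA, had 18, 8 and 5 interactions in 1FA and 141 and 194 in NPM. It would not have passed the filter on 1FA alone, so its rise is a description. Rny3 and Rpph1 likewise passed only with the NPM libraries, where Rpph1 had 14 and 13 interactions against 5, 13 and 5 in 1FA. The group's counts and median therefore depend in part on the filter. The 2 that fell were Gm22973 and Snord118. The group's median was 4.17 over 12 tested without the ribosomal bin (10 higher, 2 lower), and 0.97 over 13 without NPM n1 (6 higher, 3 lower). Of small nucleolar RNA host genes, 7 of 13 rose and 3 fell (median 1.48). Gas5 was at 23.2 to 34.6 CPM in 1FA and 127 and 222 in NPM and Snhg1 at 19.5 to 27.0 and 115 and 120, and with pairs counted a single time 3 host genes passed the filter, all lower. Their median was 0.55 without NPM n2 (5 higher and 4 lower of 11) and 0.74 without 1FA n1 (6 and 3 of 12).

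Genes for RNA-binding and splicing regulators rose more often than they fell, 22 against 11 of 50 tested (median 0.35). Srrm2, a speckle scaffold, had 238, 184 and 189 CPM in 1FA and 796 and 1103 in NPM (log2 change 1.70, SE 0.19), and Hnrnpu 241, 184 and 233 against 911 and 750. Exonic tags in the group made up 33.4% to 37.5% in 1FA and 66.3% and 59.4% in NPM. Over all transcripts they made up 17.8% to 19.7% in 1FA and 36.4% and 30.8% in NPM, so a rise was not particular to the group. By totals 32 were higher and 6 lower (median 0.85). With pairs counted a single time 10 were higher and 31 lower of 44 (median -0.59), beside the 2560 and 2718 of 5672 over all transcripts, and Hnrnpu and Rbm25 reversed.

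Polycomb and chromatin genes fell more often, 16 against 4 of 34 tested (median -0.37). With scaling by totals 13 rose and 4 fell, near the shares of all transcripts in that setting (4203 and 1326 of 10096). The falls numbered 10, 8 and 10 without 1FA n1, n2 and n3, beside 2216 of 9793, 2020 of 9691 and 2028 of 9720 over all transcripts. Jarid2, a partner of the PRC2 complex, had 5131, 5527 and 5843 CPM in 1FA and 2262 and 2892 in NPM (log2 change -1.61, SE 0.25). Kat6b, a histone acetyltransferase gene, fell by 1.24 and Cbx7, a Polycomb reader gene, by 1.07.

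Very long genes fell nearly as a whole, with 26 of 31 tested lower and none higher (median -1.28). Of all tested protein-coding genes above 300 kb, 210 of 372 were lower and 13 higher (median -0.75). The list includes Fgfr2, whose value cannot be read as that of the receptor gene. With scaling by totals 24 of the listed genes were lower and none higher. Wwox, a gene at a common fragile site, had 7274, 6279 and 6315 CPM in 1FA and 2727 and 3327 in NPM, and Msi2, Exoc4 and Rad51b fell by 1.61, 1.36 and 1.37. With pairs counted a single time 12 rose and 12 fell of 28, close to the shares of all transcripts in that setting. Ribosomal protein genes showed 9 higher and 21 lower of 70 tested (median -0.13), with 16 higher and 11 lower by totals. That is a smaller share higher than over all transcripts in that setting (4203 of 10096). The median was 0.07 without NPM n1 (10 higher, 15 lower) and -0.51 without NPM n2 (5 higher, 26 lower), and with a 1FA library left out it was -0.27 (n1, 5 higher and 18 lower of 68), -0.05 (n2, 6 and 11 of 65) and -0.05 (n3, 6 and 13 of 65). Nuclear long noncoding RNAs had 4 higher and 7 lower of 18 tested (median -0.09), against 8 higher and 4 lower by totals (median 0.42) and 3 higher and 13 lower of 16 with pairs counted a single time. Their median turned to 0.11 without 1FA n1 and 0.125 without NPM n1 (7 higher, 7 lower), and was -0.32 without 1FA n2 and -0.25 without NPM n2, so no direction is given for the group. Kcnq1ot1, the imprinted antisense RNA, fell by 1.099 and Lncenc1, expressed in stem cells, by 1.28, whereas Meg3 did not pass (0.42, SE 0.19).

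Of pluripotency genes 8 were higher and 7 lower of 25 tested (median 0.38), against 16 higher and 3 lower by totals (median 0.88) and 3 higher and 10 lower of 13 with pairs counted a single time. Sox2, a short intronless gene of the core network, had 11.6, 7.78 and 5.65 CPM in 1FA and 138 and 73.9 in NPM (log2 change 3.11, SE 0.37), and Tdgf1, a Nodal coreceptor gene, rose by 1.61. Esrrb, an orphan receptor gene, had 1949, 1713 and 1544 CPM in 1FA and 810 and 862 in NPM (log2 change -1.55, SE 0.18), and Nr5a2 fell by 0.94. Sox2 spans 2.06 kb and Tdgf1 6.56 kb, against 161 kb for Esrrb and 118 kb for Nr5a2. Sox2 lies within the noncoding gene Sox2ot on the same strand, and tags of the pair cannot be told apart there.

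**Figure D5:**
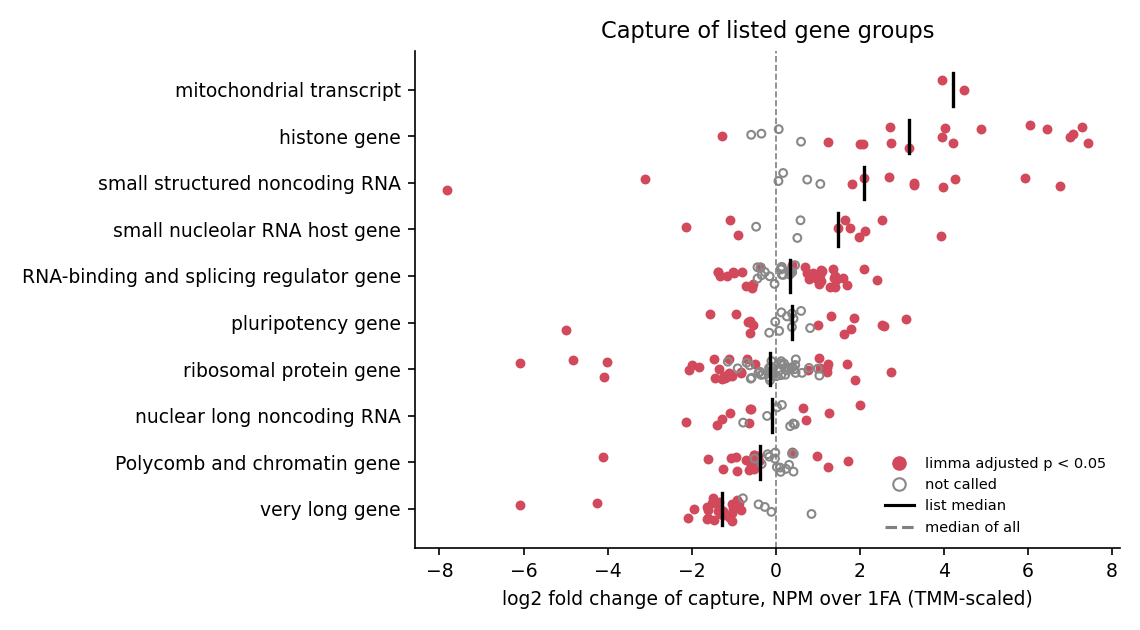
log2 fold change of capture, NPM over 1FA with TMM scaling (horizontal axis), for the tested members of each gene group (vertical axis); filled points were called by limma, open points were not, black bars are group medians and the dashed line is the median of all transcripts. The medians of histone genes (3.17) and small structured RNAs (2.09) lie to the right and that of very long genes (-1.28) to the left. The medians of histone genes and small structured RNAs depend in part on members that passed the filter only through NPM. Fitted values of transcripts listed at 0 in a group have no exact size.

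Restricting capture to contacts beyond 1 kb left 67699 and 84226 interactions in NPM and 2566538, 2306810 and 2710784 in 1FA. A rise is thus relative to a much smaller total and can come with fewer contacts. Of 9146 transcripts tested, 4184 were called (45.7%), 1177 higher and 3007 lower, and 1276 of the called ones were listed at 0 in NPM. Hsp90b1 had 55, 98 and 79 such interactions in 1FA and 242 and 214 in NPM (log2 change 6.23, SE 0.35, limma adjusted p = 0.00026). Of its NPM contacts, 223 and 183 were the exon pairs with a spliced distance under 1 kb described above. Rmrp had 711, 1014 and 694 in 1FA and 637 and 548 in NPM (4.22, SE 0.33), and almost all of these were in trans. mt-Rnr1 (5.77), mt-Rnr2 (5.13), Snord14e (4.88), Tpr (4.35), Eif3a (4.33), Rnu3a (3.47), Sptan1 (3.25), Chd4 (3.21), Smc4 (3.15) and Cubn (3.15) were the other leading rises. Cubn encodes an endocytic receptor of endoderm, and like Gata4 it was low in 1FA n1, at 29.2 CPM over all distances against 137 and 160 in the other 1FA libraries. The 12 leading falls, among them Snx10 and Ube2h, were all listed at 0 beyond 1 kb in NPM, where Snx10 had 576, 486 and 584 interactions in 1FA. Transcripts could pass the filter through 1FA alone and be listed at 0 in NPM through depth. These falls and the count of lower calls therefore give no direction. With NPM n1 or n2 left out, 7058 and 7313 transcripts were called, and with a 1FA library left out 2496 to 2648; a lone NPM library is then assumed to vary like the rest.

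Among DNA bins, 35074 of 48257 tested were called (72.7%), 5379 higher and 29695 lower in NPM, and 23880 of the called bins were listed at 0 in NPM. Without own-gene contacts 128 were higher and 41797 lower of 43502 tested. NPM then held 18193 and 32871 contacts, against 1659765 to 1935460 in 1FA. Bins could pass the filter through 1FA alone and be listed at 0 in NPM through depth, so these counts give no direction. With pairs counted a single time 2031 were higher and 3089 lower of 5942. The 10 busiest bins held 6.00% and 6.57% of NPM interactions and 0.434% to 0.708% in 1FA. Of these, the ribosomal bin alone held 2.62% and 4.59% in NPM and 0.284% to 0.539% in 1FA. The bin with n-R5-8s1 led the rises, from 21, 26 and 32 to 1614 and 417 contacts (log2 change 6.99, SE 0.64, limma adjusted p = 5.6e-05). The bin of Hsp90b1 at chr10:86675001-86700000 went from 26, 65 and 55 contacts to 466 and 419, and that of Rmrp at chr4:43475001-43500000 from 146, 103 and 97 to 619 and 398. The largest falls were bins listed at 0 in NPM: in 1FA Pvt1 gave 90.8% of 535 contacts of chr15:62000001-62025000, and Meg3 gave 67.7% of 514 contacts of chr12:109575001-109600000. A pair of Esrrb bins that were called slightly higher, and that of Srrm2, fell when contacts with the RNA's own gene were left out, which left no NPM contact in them.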

How the data were processed

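RADICL-seq interactions of the 3 mESC 1FA and 2 mESC NPM libraries were taken from the deposited lists, a kind of file in which the authors give 1 line per interaction of a significant pair with its annotation, and no count column. Per the study's methods, pairs of a transcript and a 25000-base bin were kept after a one-sided binomial test with Benjamini-Hochberg adjustment. The methods also describe a filter on blacklisted genome regions, applied to the significant sets. A pair listed in several libraries of a group carries the same adjusted p in each, so pairs were called on pooled replicates and the libraries of a group are not independent in which pairs they list. The submitters' processing notes name mm10, BWA 0.7.15-r1140 and CASAVA 1.8. The lists' own p and q columns were used for nothing else. NPM n1 was sequenced again, and how its runs were merged is not given in the sources used here.

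Distinct combinations of tag positions and gene were counted once per library (434610 to 2832717 interactions), which limits counting error. Per the study's methods, FastUniq had already taken duplicate tag pairs from PCR out before alignment. Gene spans, exons and symbols came from GENCODE M21 on GRCm38 (98.95% of 14681 listed transcripts had a symbol). Transcripts and bins with at least 10 interactions in 2 libraries and 15 in total were tested with limma 3.58.1 (R 4.3.3) on log2 counts with a prior count of 0.5 and TMM scaling, with Benjamini-Hochberg adjustment over all features and calls at 0.05. The share within 1 kb was tested as log odds with 0.5 added, for transcripts with at least 20 interactions. For the remaining shares an exact permutation test over the 5 libraries was used. Of 70 shares, 43 were planned and 27 were added after the data were seen.

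Named transcripts were the 12 largest called rises and falls with non-overlapping groups and a mean of at least 100 interactions, those with most interactions, and up to 6 members of each list; named bins followed a like rule. The exon pairs, the windows of 200 bases, Gm26917 and the other genes named as DNA targets were chosen after their values were seen. The members and lists were chosen with earlier results of these data known. Alternatives were scaling by totals, no filter, a prior count of 2, voom weights, a replicate block, leaving out each library, the ribosomal bin, own-gene contacts, contacts within 1 kb or mitochondrial sequence, and counting a pair of transcript and bin a single time.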

Additional observations from a re-analysis of the deposited data

How the results depend on the processing

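Calls per transcript numbered 5020 and (of 10096 tested) became 8904 of 14681 with no filter on low counts, and the cause was not tested. Beyond 1 kb the 4184 calls became 7141 with no filter. Counting each transcript-bin pair a single time left 5942 bins for testing and 5120 calls, against 35074. Requiring 50 interactions left 2225 transcripts for the share within 1 kb, and all 2225 were called. Without own-gene contacts 38 of 42 shares stood apart, against 61 of 70. Leaving out each library in turn gave 3706 to 5138 calls per transcript, 2496 to 7313 beyond 1 kb, 28049 to 38143 for bins, 4924 to 5862 for the share within 1 kb and 62 to 64 shares apart; a lone NPM library is assumed to vary like the others.

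Libraries with the same replicate number did not deviate together (correlations of -0.03 for n1 and -0.13 for n2). With only NPM n1 and n2, their deviations mirror each other, so this cannot decide whether the numbers pair the samples. With a replicate block the calls were 4150 per transcript, 1786 beyond 1 kb (209 higher and 1577 lower), 32674 for bins and 4913 for the share within 1 kb, and 65 shares moved the same way in both pairs.

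Some shares changed sign as NPM minus 1FA differences in percentage points, and the cause was not tested. With pairs counted a single time, trans became 2.69, contacts from 1 to 10 kb 2.72 and exonic RNA tags within 1 kb of their own gene -0.33. Without own-gene contacts, trans became 79.7 (56.2 without the ribosomal bin and 49.99 also without ribosomal RNA genes), protein-coding RNA -14.1, other noncoding RNA 11.1, 5′ untranslated regions 1.30, noncoding exons 14.3 and RNA tags in the first 1 kb of the gene 14.5. Without contacts within 1 kb, trans became 23.01 (1.14 without the ribosomal bin), contacts from 1 to 10 kb 46.3, other noncoding RNA 0.456 and DNA tags in the last 1 kb of the gene -1.54. Without Gm22973, trans became 1.93, protein-coding RNA -1.16, other noncoding RNA 1.23, small nuclear RNA 0.0332, small nuclear RNA repeats 0.0458, noncoding exons 1.65 and RNA tags in the first 1 kb 0.283. Without Gm22973 and the ribosomal bin, the values were -1.09 for protein-coding RNA, 1.18 for other noncoding RNA, 0.0135 for small nuclear RNA, 0.0472 for its repeats, 1.58 for noncoding exons, 0.2105 for the first 1 kb and 0.646 for the upstream share from 1 to 10 Mb. That upstream share was 0.630 without the bin alone. The alternatives without Gm22973 were chosen after seeing the data.

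Log2 changes of named transcripts kept their direction and side of the threshold in 2462 cases, while 164 lost the threshold, 143 gained it and 10 reversed. With pairs counted a single time, capture of Nasp became -0.23, Smc4 -0.57, Gm20388 0.93, Rbm25 -0.60, Hnrnpu -0.23 and Neat1 -1.45. Beyond 1 kb, Cspg4 became 0.26 with voom weights, and without the ribosomal bin Hist1h1c became -0.78, Sox2 -1.58 and 1110038B12Rik -2.39. Without own-gene contacts the Esrrb bins became -6.47 and -5.47 and the Srrm2 bin -5.97, with no NPM contact left in them.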
